A study of Mus musculus with 24 samples.

Results

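Cxcl12, Cxcr4 and Ackr3 encode a chemokine and its 2 receptors. They were chosen by name, as the ligand and receptors of one guidance system for migrating cells, and their rows were read from a table of gene-level values for dissected embryonic mouse archicortex (ARK), the medial edge of the cortex that gives rise to the hippocampus. These 3 genes are a small part of the 51912 genes listed, of which 16454 were expressed highly enough to be tested, and all 3 were among those tested. The members and their levels were examined in 6 groups of embryos, and each level was set beside the amount of RNA from meninges, from Cajal-Retzius cells and from other cell types in the same library.

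CXCL12 is a secreted chemokine that the meninges release over the developing cortex. CXCR4 is the G protein-coupled receptor through which cells move toward it, and Cajal-Retzius cells, which leave the cortical hem (CH) and spread beneath the pia, are held in the marginal zone by this signal, as are migrating interneurons and dentate precursors. ACKR3 (formerly CXCR7) binds the same ligand, signals through beta-arrestin rather than through G proteins, and takes CXCL12 up for degradation, which shapes the level that other cells meet.

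The study compared mouse embryos of mixed C57BL/6J;MF1 background in which the transcription factor gene Sox9 was deleted by one of 2 Cre drivers, with controls that carried the same Cre but intact Sox9, so that every library held a Cre allele. Sox9fl/fl;Sox1Cre mutants and Sox9+/+;Sox1Cre controls were taken at E12.5 and at E13.5, and Sox9fl/fl;NestinCre mutants and Sox9+/+;NestinCre controls at E13.5, with 4 libraries in each of the 6 groups (24 in all, named A1 to A24). By the study's account the 2 drivers differ in reach, since Sox1Cre recombines throughout the early neural plate, CH included, and the NestinCre transgene acts later, in the dentate neuroepithelium and hardly in the CH. The libraries held between 16163560 and 49445219 reads on genes (median 23016925). The study describes its E13.5 mutants as quadruplicate. Whether each library came from a single embryo or from a pool was not given in the sources used here. All p-values therefore measure the spread among these libraries, which may be partly technical.

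Sox9 itself was lower in every mutant library than in every control library of its comparison. The differences were -1.02 (log2, adjusted p = 6.28e-05, limma) in the E12.5 Sox1Cre groups, -0.74 (adjusted p = 0.0021) in the E13.5 Sox1Cre groups and -0.71 (adjusted p = 0.0297) in the NestinCre groups. The NestinCre difference passed in 14 of 22 alternative fits, with adjusted p-values (limma) up to 0.11, and the other pair passed in all 22. The defining markers of dorsal telencephalon, of CH, of meninges and of Cajal-Retzius cells were present in every library. Lhx2, a dorsal telencephalic patterning gene, averaged 15922 normalized counts, Wnt8b, a Wnt ligand of the CH, 7412, Col3a1, a collagen chain of the meninges, 15236, and Reln, the secreted Reelin glycoprotein of Cajal-Retzius cells, 6767. Of the 5 defining markers of ventral interneurons Dlx1 and Gad2 were at 0 in some libraries, as were 6 of the 9 other markers of that list. Library A1, an E13.5 Sox1Cre mutant, stood apart from its group with the lowest scores of all 24 libraries for meninges, endothelium, microglia, choroid plexus and CH, where a score is the mean of log2(value + 1) over the markers of a list. Library A10, an E12.5 Sox1Cre mutant, had the next lowest endothelial score (8.73, against 8.40 in A1), and A18, a NestinCre mutant, had the highest Cajal-Retzius (9.80) and ventral interneuron (5.62) scores.

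In GRCm38, Cxcl12 (ENSMUSG00000061353) lies on the plus strand of chromosome 6 from 117168535 to 117181367, with 8176 exonic bases. It has 4 annotated transcripts, of which the 3 coding ones have 3 to 4 exons. Cxcr4 (ENSMUSG00000045382) lies on the minus strand of chromosome 1 from 128588199 to 128592293, with 2 exons and 1808 exonic bases. Ackr3 (ENSMUSG00000044337) lies on the plus strand of chromosome 1 from 90203980 to 90216751, with 2 to 3 exons and 3348 exonic bases. None of the 3 shares exonic bases with another annotated gene. The 100 bases that end just before each RefSeq start site are shown (GRCm38.p6, written 5′ to 3′ on the gene's own strand). The letters TATAAA occur there in both receptor genes and not in the ligand gene. The window is chr6:117168435-117168534 for Cxcl12, chr1:128592300-128592399 for Cxcr4 and chr1:90203880-90203979 for Ackr3. Capitals mark TATAAA, the TATA box letters, read on either strand, so that in Cxcr4 TATAAA and its reverse complement TTTATA overlap.
Cxcl12: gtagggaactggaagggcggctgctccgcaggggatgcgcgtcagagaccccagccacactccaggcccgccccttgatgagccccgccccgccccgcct
Cxcr4: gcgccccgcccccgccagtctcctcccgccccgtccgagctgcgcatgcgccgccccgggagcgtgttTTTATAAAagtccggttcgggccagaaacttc
Ackr3: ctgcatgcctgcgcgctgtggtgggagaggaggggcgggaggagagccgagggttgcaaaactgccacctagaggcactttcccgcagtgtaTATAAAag

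Both receptor promoters held TATAAA in this window and the Cxcl12 promoter did not. The place differed, since the letters lay almost at the start site in Ackr3 and farther upstream in Cxcr4. Whether they act as a TATA box in either gene was not tested. These letters occurred in 5.56% of all 32851 RefSeq promoter windows of the same length. GC content was 73% for Cxcl12, 69% for Cxcr4 and 60% for Ackr3. The SOX core letters ACAATG (12.6% of promoter windows of 300 bases, both strands) and ACAAAG (18.7%) were in none of the 3 windows of 300 bases around the start sites, which says only that these letters are absent there.

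Cxcl12, the ligand, was lower on average in the mutants of both lines at E13.5, but the mutant and control libraries overlapped. In the E13.5 Sox1Cre mutants A1 to A4 it was at 996, 1893, 1485 and 1749 normalized counts (size-factor scaled reads), and in their controls A5 to A8 at 1650.01, 2023, 1769 and 1988. Libraries A1 and A3 fell below all 4 controls, and A2 and A4 lay among them. The group means were 1531 ± 394.7 (SD, n = 4) and 1858 ± 178.3, a difference of -0.32 on the log2(value + 1) scale (SE 0.183, 95% interval -0.69 to 0.06, adjusted p = 0.535, limma; exact permutation p = 0.171, two-sided, where 4 against 4 libraries cannot go below 0.0286). Library A1 carried most of this difference, which came to -0.12 without it. With the meningeal score as a covariate it was -0.19, with the Cajal-Retzius score -0.24, with log2 Xist -0.31 and with the endothelium score, which was chosen after seeing the data, -0.15. Of all genes tested, 152 passed the threshold of an adjusted p under 0.05 in this comparison (0.924%), and none of the 3 members was among them.

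In the NestinCre groups Cxcl12 was at 1713, 1987, 1362 and 1203 in the NestinCre mutants A17 to A20 and at 1823, 2019.7, 1615 and 1637 in their controls A21 to A24. Libraries A19 and A20 lay below all 4 controls. The difference was -0.20 (95% interval -0.58 to 0.18, adjusted p = 0.989, limma; exact permutation p = 0.343), in a comparison with 11 genes called (0.0669%) and no member among them. It ran from -0.32 without A18 to -0.08 without A20. With the Cajal-Retzius score as a covariate it was -0.44 (unadjusted p = 0.0124, adjusted p = 0.600, limma), which did not pass either, while it was -0.13 with the meningeal score, -0.20 with log2 Xist and -0.10 with the endothelium score. At E12.5 the Sox1Cre mutants A9 to A12 were at 1521, 993, 1703 and 1479, and their controls A13 to A16 at 1272, 1574, 1536 and 1280.4. Library A10 lay below, and A11 above, all 4 controls. The means of 1424 ± 303.3 and 1416 ± 161.8 differed by -0.013 (95% interval -0.39 to 0.37, adjusted p = 0.984, limma; exact permutation p = 0.943). At this age 119 genes were called (0.723%), again without a member.

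Cxcl12 varied more among the 4 mutant libraries than among the 4 control libraries of each comparison, but at E12.5 this rested on A10. Its coefficient of variation was 25.8%, 21.3% and 22.5% in the mutants and 9.6%, 11.4% and 10.6% in the matching controls. Without A10 that of the E12.5 mutants was 7.59%, below their controls, and without A1 that of the E13.5 Sox1Cre mutants was 12.1%. Counting error was far smaller, between 1.53% and 3.39%, because 872 to 4271 reads lay behind each value. Whether the spread differs between genotypes was not tested. The lowest Cxcl12 libraries, A10 and A1, were also those with the lowest endothelial scores.

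**Figure D1:**
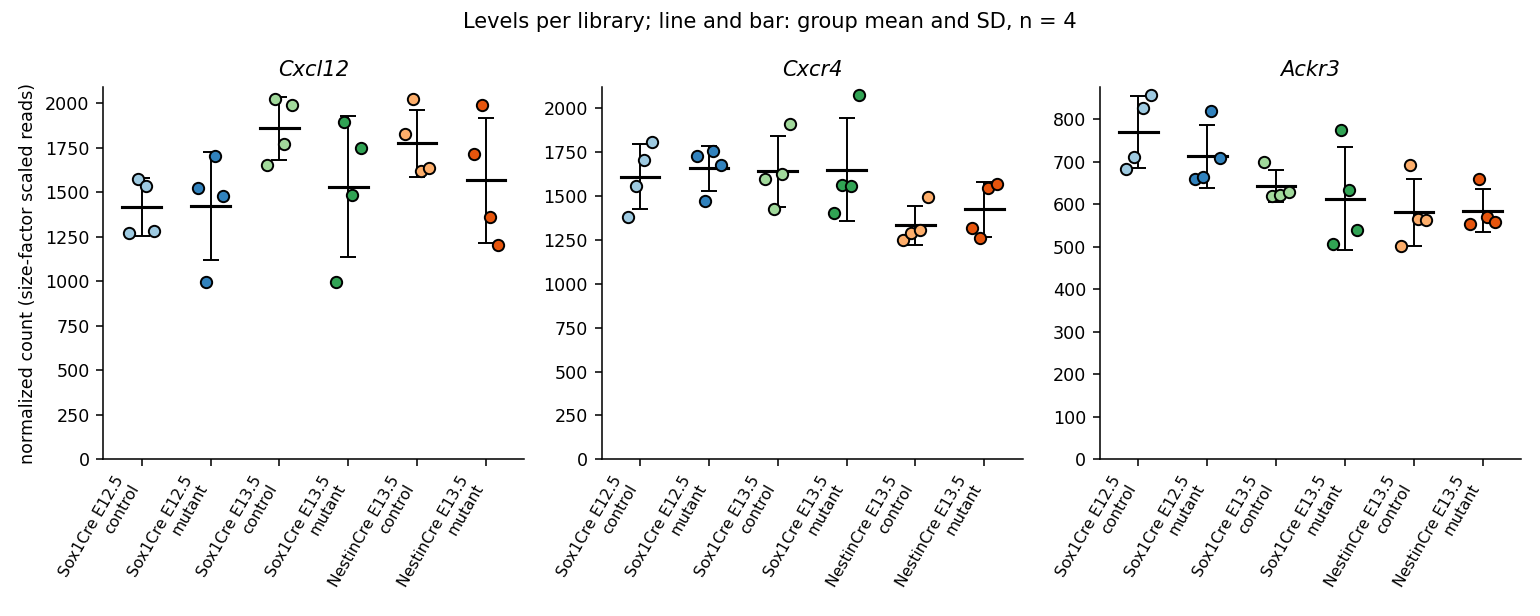
Normalized counts (size-factor scaled reads, vertical axes from 0) of Cxcl12, Cxcr4 and Ackr3 in each of 24 libraries by group, with the group mean (line) and SD (bar), n = 4. Mutant and control points overlap in every genotype comparison, whereas all 4 E13.5 Sox1Cre controls lie above the 4 E12.5 Sox1Cre controls for Cxcl12.

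Cxcr4, the signalling receptor, was at the same mean level in mutants and controls of the E13.5 Sox1Cre line. The mutants were at 1404, 1562, 1559.8 and 2077, and the controls at 1596, 1428, 1628 and 1913. The ranges overlapped almost fully, with A4 highest and A1 lowest. The means, 1651 ± 293.8 and 1641 ± 201, differed by 0.00048 (log2, unadjusted 95% interval -0.23 to 0.23, adjusted p = 0.9996, limma). A change inside that interval cannot be told from none with these libraries.

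In the NestinCre mutants Cxcr4 was at 1319, 1262, 1545 and 1567, and in their controls at 1248, 1289, 1304 and 1497. Libraries A19 and A20, low in Cxcl12, were above all 4 controls here. The difference was 0.09 (95% interval -0.14 to 0.32, limma adjusted p = 1, exact permutation p = 0.286). At E12.5 the mutants were at 1729, 1471, 1755 and 1675 and the controls at 1379, 1555, 1706 and 1805. The difference of 0.04 (95% interval -0.19 to 0.28, adjusted p = 0.897, limma) was again smaller than the spread.

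Ackr3, the scavenging receptor, was the least abundant per library but had at least 468 reads in each. It was at 507, 775, 632 and 539 normalized counts in the E13.5 Sox1Cre mutants and at 699, 619, 622 and 629 in their controls. The mutants spanned a wider range than the controls, with A1 the lowest and A2 the highest of the 8 libraries. The difference was -0.08 (95% interval -0.33 to 0.16, adjusted p = 0.853, limma). It was -0.18 with log2 Xist as a covariate and -0.0055 with the meningeal score, and Xist, a marker of female embryos, was high in 2 of 4 mutants and in 0 of 4 controls.

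In the NestinCre groups Ackr3 was at 553, 659, 569.8 and 557 in mutants and at 503, 692, 565.5 and 564 in controls. All 4 mutants lay within the range of the controls, and the difference was 0.02 (95% interval -0.23 to 0.26). At E12.5 it was at 660.3, 664, 820 (819.539) and 709 in the mutants and at 682.9, 712, 826 and 857 in the controls. Libraries A9 and A10 were below all 4 controls, and the difference of -0.11 (95% interval -0.35 to 0.13, adjusted p = 0.731, limma) did not pass the threshold.

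No member passed the threshold in any genotype comparison by limma, by edgeR or by DESeq2, and without a covariate none had an unadjusted limma p under 0.05 there. With one, Cxcl12 fell under it in the NestinCre comparison, as given above, and so did Ackr3 at E12.5 with the CH score, chosen after seeing the data (-0.19, unadjusted p = 0.0281, adjusted p = 0.340, limma). The genotype change was also compared between the Cre lines and between the ages. Between the lines (NestinCre minus Sox1Cre), 7 genes were called (0.0425%), and the differences of the members were 0.11 for Cxcl12, 0.09 for Cxcr4 and 0.10 for Ackr3, each with an interval that held 0. With the Cajal-Retzius score as a covariate those of Cxcl12 and Cxcr4 turned sign, to -0.19 and -0.06, and that of Ackr3 was 0.00087. Between the ages (E13.5 minus E12.5) limma called 0 genes (0%), with 1217 at an unadjusted p under 0.05 and 20 called by DESeq2. The members differed there by -0.30 (95% interval -0.84 to 0.23) for Cxcl12, by -0.04 for Cxcr4 and by 0.02 for Ackr3.

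From E12.5 to E13.5 the mean of the ligand was higher and that of the scavenging receptor lower in the controls, and neither difference passed the threshold over all genes. Cxcl12 was 1416 ± 161.8 in the 4 E12.5 Sox1Cre controls and 1858 ± 178.3 in the 4 E13.5 Sox1Cre controls. Every E13.5 control was above every E12.5 control, and 9.23% of all genes tested were separated in this direction. The difference was 0.39 (95% interval 0.01 to 0.77, adjusted p = 0.171, limma; exact permutation p = 0.0286, the smallest possible). In this comparison 1892 genes were called (11.5%), none of them a member. In the mutants the age difference of Cxcl12 was 0.09 (95% interval -0.29 to 0.47, adjusted p = 0.753, limma), where 4263 genes were called (25.9%), likewise without a member. Single libraries moved it, to 0.28 without A1 and to -0.07 without A10, and with the endothelium or the Cajal-Retzius score as a covariate it was 0.22.

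Ackr3 averaged 769.3 ± 85.0 in the E12.5 Sox1Cre controls and 642.2 ± 37.9 in those of E13.5, with 3 of 4 E13.5 libraries below all E12.5 libraries and A5 (699) among them. The difference was -0.26 (95% interval -0.50 to -0.01, adjusted p = 0.165, limma; exact permutation p = 0.0571). In the mutants, at 713.1 ± 74.3 and 613.3 ± 120.3, it was -0.23 (95% interval -0.47 to 0.01, adjusted p = 0.153, limma; exact permutation p = 0.2). Without library A2, the mutant highest in Ackr3 at E13.5, it was -0.35 and passed (adjusted p = 0.0205, limma). Cxcr4 differed by 0.03 in controls and by -0.02 in mutants.

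Some pericyte and meningeal markers also passed with age in the controls. Of 7 pericyte markers tested 3 rose, among them Rgs5, a regulator of G protein signalling in mural cells, by 1.61, and Notch3 fell by 0.43, beside 11.5% of all genes called. The pericyte score was 7.89 ± 0.086 at E12.5 and 8.50 ± 0.184 at E13.5. Of 15 meningeal markers 3 rose, among them Slc6a13, a GABA transporter, by 2.53, and Crabp2, a retinoic acid-binding protein, fell by 1.13. Their log2 difference was above 0 in 5 of 15, with a median of -0.13, and their summed values were 49466 ± 8938 at E12.5 and 42113 ± 5236 at E13.5. With the meningeal score as a covariate the age difference of Cxcl12 in the controls was 0.33 (adjusted p = 0.161, limma). The part of pericytes and meninges in the Cxcl12 difference was not tested.

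Of 10 CH markers 6 fell in the controls, beside 11.5% of all genes called, and 8 fell in the mutants, beside 25.9%, and none passed as higher. Rspo2, an activator of Wnt signalling, fell by 0.99 and Wnt8b by 1.10 in the controls. Other lists moved with age too. Of 10 erythroid markers 7 fell in the controls, and in the mutants 6 fell and 1 rose. Of 9 intermediate progenitor markers 4 rose and 1 fell in the controls, and in the mutants 3 rose and 1 fell. With the CH score as a covariate the age difference of Ackr3 was 0.03 in controls (adjusted p = 0.891, limma) and 0.18 in mutants, while that of Cxcl12 in controls was 0.61 (adjusted p = 0.135). Sex moved with age as well. Xist, which is expressed from the inactive X chromosome of females, was above 1000 in 4 of 4 E12.5 Sox1Cre controls and in 0 of 4 E13.5 Sox1Cre controls, so in the controls age and sex cannot be told apart, whereas 2 of 4 mutants were above it at each age. With log2 Xist as a covariate the age difference was 0.38 (adjusted p = 0.449, limma) for Cxcl12 and -0.09 (adjusted p = 0.813) for Ackr3. In bulk tissue, fewer cells of a type and less RNA per cell cannot be told apart.

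The E13.5 controls of the 2 Cre lines served as a further comparison without any deletion, although the Sox1Cre controls are the same 4 libraries used above. Cxcr4 was lower in the NestinCre controls, at 1334 ± 110.7 against 1641 ± 201, and 3 of 4 NestinCre libraries were below all Sox1Cre controls. The difference was -0.29 (95% interval -0.53 to -0.06, unadjusted p = 0.0164, adjusted p = 0.345, limma; exact permutation p = 0.0571). It was -0.18 with the Cajal-Retzius score as a covariate, and the summed Cajal-Retzius markers were at 13372 ± 1587 in the NestinCre controls and at 16150 ± 2595 in the Sox1Cre controls. Cxcl12 differed by -0.07 and Ackr3 by -0.15, and with the Cajal-Retzius score as a covariate by 0.18, the opposite sign, and by -0.07. In all 40 genes were called (0.243%), no member among them.

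**Figure D2:**
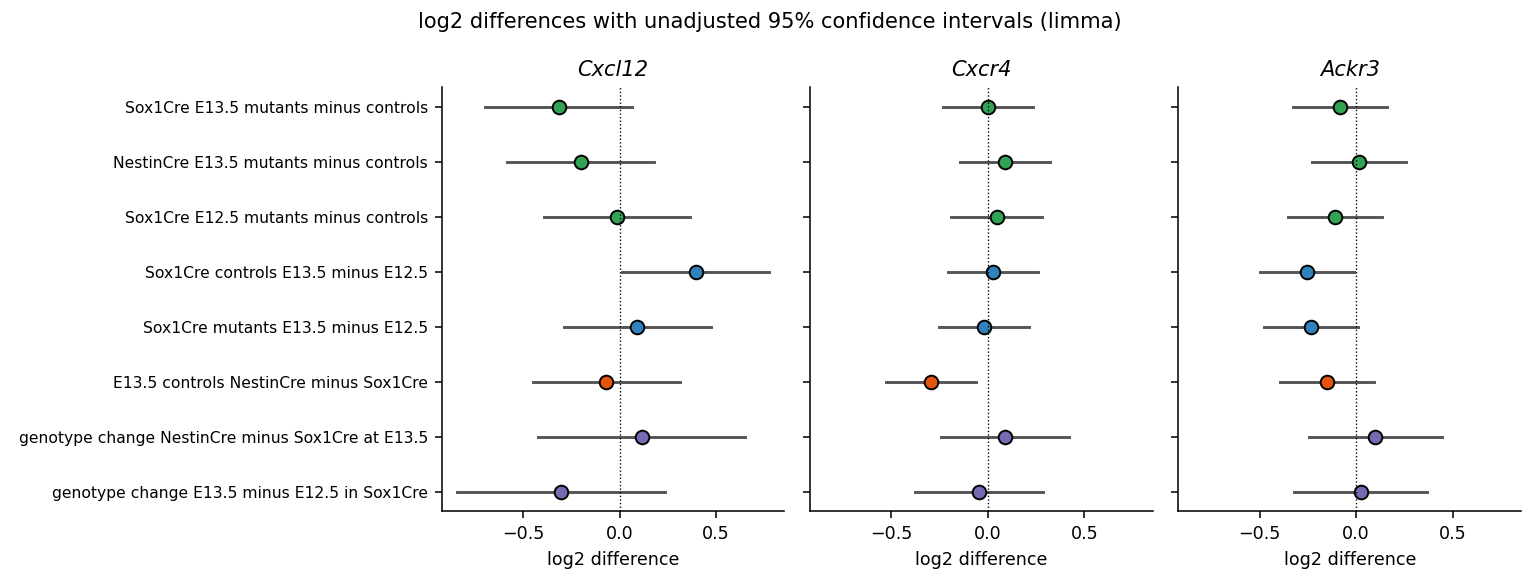
Differences on the log2(value + 1) scale (horizontal axis) of the 3 genes in 8 comparisons, with unadjusted 95% confidence intervals from limma. All 9 intervals of the genotype comparisons hold 0, and the intervals clear of 0 are those of Cxcl12 and Ackr3 with age in controls and of Cxcr4 between the control lines.

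Per kilobase of exonic sequence, Cxcr4 was the most abundant of the 3, at 859 normalized counts per kb over 24 libraries against 195 for Cxcl12 and 194.3 for Ackr3. With the longest coding transcript as the length the levels were 860.4, 283.4 and 212.3, and with the shortest they were 1722 for Cxcr4, 849 for Cxcl12 and 1610.5 for Ackr3, so Cxcr4 was first on all 3 lengths while Ackr3 was above the ligand only on the shortest. Which transcripts the libraries held is not known from gene-level values. The shortest coding transcripts are annotated with 902 bases for Cxcr4, 1878 for Cxcl12 and only 404 for Ackr3. Whether each of them holds a whole reading frame was not examined, so the levels on this length are the least certain. The ratio of Cxcr4 to Ackr3 per kb, signalling receptor over scavenger, averaged 4.49 on exonic length and ran from 3.45 in A22 to 7.13 in A4. It averaged 4.12 on the longest coding transcripts but 1.09 on the shortest. The ratio of Cxcr4 to Cxcl12 averaged 4.58 on exonic length, with a range from 2.87 in A18 to 6.70 in A10, and 2.11 on the shortest. Ordered by group mean, Cxcl12 was highest in the E13.5 Sox1Cre controls and lowest in the E12.5 Sox1Cre controls, Cxcr4 highest in the E12.5 Sox1Cre mutants and lowest in the NestinCre controls, and Ackr3 highest in the E12.5 Sox1Cre controls and lowest in the NestinCre controls. Neighbouring groups in each order overlapped.

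The members were also followed from library to library beside markers of the cell types that the dissection could hold. After each group mean was removed, so that genotype, line and age could not make the relation, each gene was set against 11 marker lists over 24 libraries. This gave 33 relations, with p-values from 100000 permutations within groups and adjusted over the 33. By Pearson r, 6 passed, 4 of them for Cxcl12 and 2 for Ackr3.

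For the meninges, the tissue that secretes CXCL12, the relation with Cxcl12 did not pass on the score, passed with summed markers, and was lower without a pair of libraries. Pearson r was 0.53 (permutation p = 0.0555, adjusted p = 0.153) and Spearman rho 0.40 (permutation p = 0.108). Without A1 and A2, the lowest and the highest meningeal scores (9.13 and 10.12), r was 0.21. With the summed markers r was 0.74 (adjusted permutation p = 0.0138), and with the scores of all libraries without removal of group means it was 0.56 (adjusted p = 0.0155). The collagen genes Col3a1, Col1a2 and Col1a1 dominate that sum, with means of 15236, 9497 and 9091 normalized counts. No meningeal marker of 15 passed the threshold in a genotype comparison by limma, edgeR or DESeq2, 1 having an unadjusted limma p under 0.05 in the E13.5 Sox1Cre comparison and none in the others. The median log2 change of the 15 was -0.20 there, -0.15 in the NestinCre comparison and -0.03 at E12.5, beside medians over all genes of -0.0046, -0.0021 and 0.0020. When single libraries were left out, a step added for marker lists and for the spread of Cxcl12 after seeing the data, the first was 0.00080 without A1 and the second -0.04 without A19. The summed meningeal markers came to 36115 ± 12024 in the E13.5 Sox1Cre mutants and to 42113 ± 5236 in their controls. Library A1 alone was at 21019, and without it the mutants averaged 41147.

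By Pearson's r the relations of Cxcl12 with vascular and microglial markers passed over the 24 libraries, but not over the 16 of E13.5. With the endothelium score r was 0.80 (permutation p = 0.00542, adjusted p = 0.0358; rho 0.73, adjusted p = 0.0121) and 0.60 without A1 and A10. With the pericyte score r was 0.72 (adjusted permutation p = 0.04), although rho, 0.58, did not pass (adjusted permutation p = 0.104), and with the microglia score 0.84 (permutation p = 0.00051, adjusted p = 0.0158; rho 0.77). Without A1 and A11 the last was 0.77. Over the 16 E13.5 libraries r was 0.75 for endothelium, 0.70 for pericytes (adjusted permutation p = 0.191 for both) and 0.81 for microglia (0.0678). The most abundant markers were Kdr, the VEGF receptor of endothelium, at 3554, Notch3, a Notch receptor of mural cells, at 4220.4, and Csf1r, the growth factor receptor of microglia, at 679.6. No endothelial marker of 12 passed in a genotype comparison by limma, edgeR or DESeq2 or had an unadjusted limma p under 0.05. All 12 had a negative log2 change in the E13.5 Sox1Cre and NestinCre comparisons, with medians of -0.23 and -0.14, and 8 of 12 at E12.5, with a median of -0.06. A single library carried each of these medians. Without A1 the first was 0.06 with 5 of 12 markers below 0, without A19 the second was -0.0040 with 7 of 12, and without A10 that of E12.5 was 0.16 with 1 of 12. Over the 21 libraries left without A1, A10 and A18, r with the endothelium score was 0.43, with pericytes 0.42 and with microglia 0.62, none past the threshold (adjusted permutation p = 0.515, 0.44 and 0.127). The part of these cells in the Cxcl12 values was not tested.

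With the Cajal-Retzius score, Cxcl12 had r = 0.64 (permutation p = 0.00519, adjusted p = 0.0358) and rho = 0.55 (adjusted p = 0.104), and r without the 2 farthest libraries was 0.57. This relation turned with the way the markers were combined. When the score was taken as the log2 of the summed marker values, which Reln dominates, r was -0.08 (adjusted permutation p = 0.854), whereas with the mean log2 score but without A1, A10 and A18 it was 0.26 (adjusted permutation p = 0.604).

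Cxcr4, the receptor carried by Cajal-Retzius cells, had r = 0.51 with their score (permutation p = 0.033, adjusted p = 0.136) and rho = 0.54 (permutation p = 0.022, adjusted p = 0.104), and r was 0.45 without A1 and A23. With the summed markers r was 0.65 (adjusted permutation p = 0.0199). Without A1, A10 and A18 it was 0.66 (adjusted p = 0.115). With meninges Cxcr4 had r = 0.09 (permutation p = 0.778, adjusted p = 0.855). With the CH score it had r = 0.37 (adjusted permutation p = 0.314), and without removal of group means 0.47 (adjusted permutation p = 0.0692).

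Ackr3 varied with the CH markers and against those of intermediate progenitors. With the CH score r was 0.78 (permutation p = 0.00097, adjusted p = 0.0158), rho 0.83 (adjusted p = 0.0102) and r without A1 and A12 was 0.77. With intermediate progenitors, the dividing neuronal precursors marked by Eomes and Neurog2, r was -0.69 (permutation p = 0.00144, adjusted p = 0.0158), rho -0.62 (adjusted p = 0.0728) and r without the 2 farthest libraries -0.62. Over the 16 E13.5 libraries the relation with the CH score no longer passed (r = 0.82, adjusted permutation p = 0.0541), while that with intermediate progenitors did (r = -0.77, adjusted p = 0.0429). Over the 21 libraries without A1, A10 and A18 the values were 0.73 and -0.66, with an adjusted permutation p of 0.0975 for each. With meninges Ackr3 had r = 0.55 (permutation p = 0.0448, adjusted p = 0.149), which was 0.25 without A1 and A2. With Cajal-Retzius cells r was 0.33 (permutation p = 0.137, adjusted p = 0.267), and with their summed markers it was -0.46 (adjusted permutation p = 0.15).

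**Figure D3:**
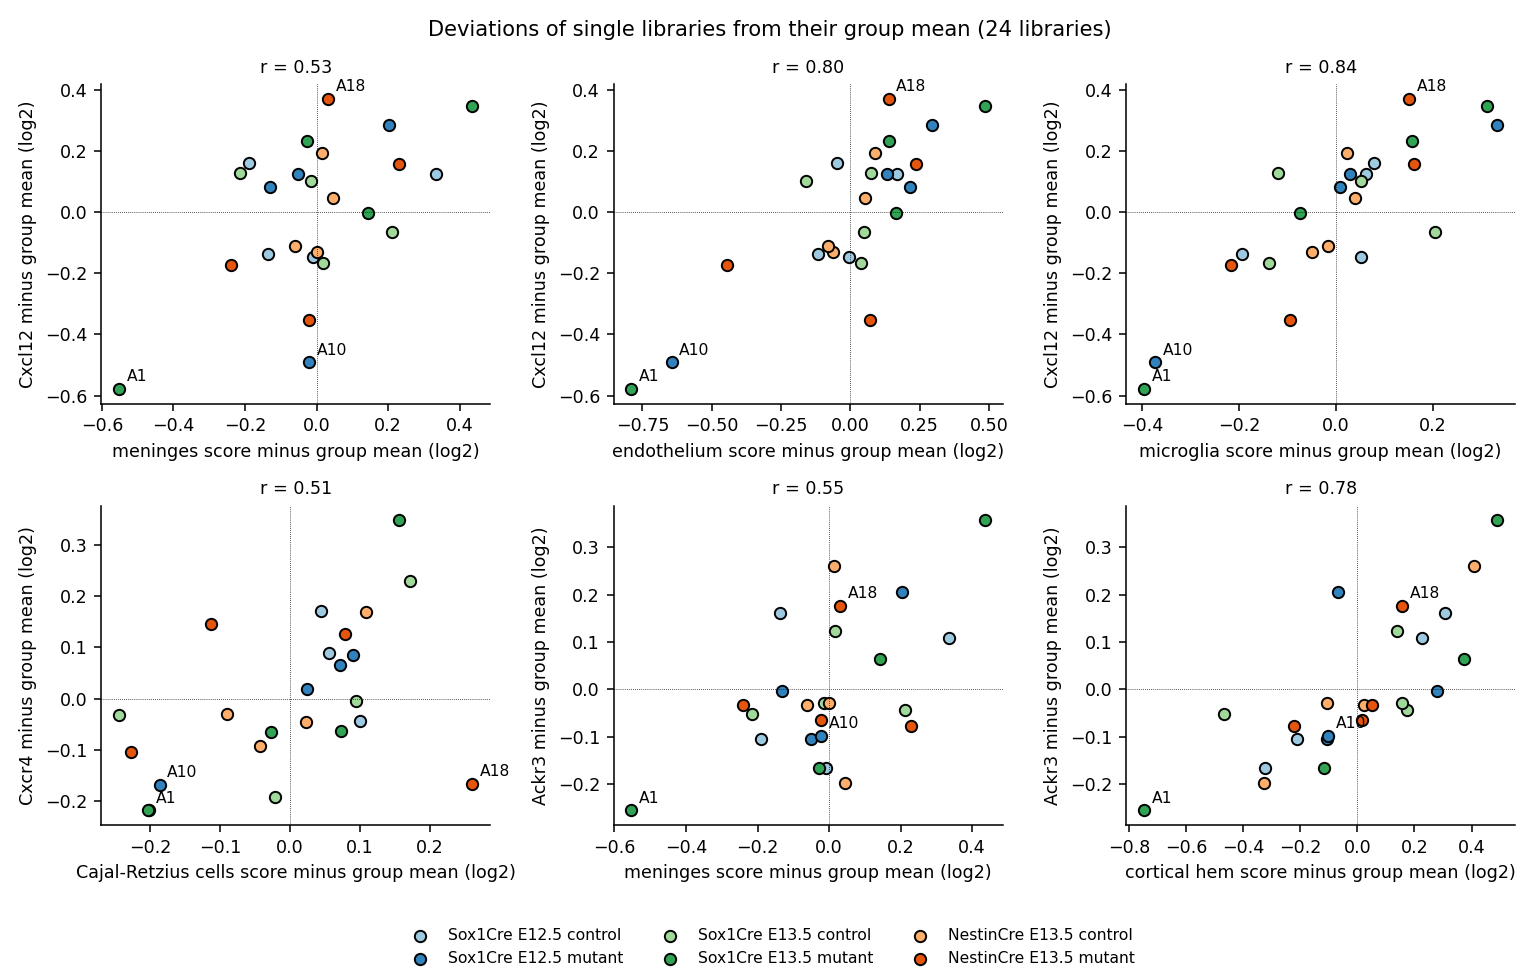
Deviation of each library from its group mean in the log2 value of a gene (vertical axes) against its deviation in a marker score (horizontal axes), 24 libraries coloured by group, with A1, A10 and A18 named. A1 lies at the lower left for Cxcl12 with meninges, endothelium and microglia, and the Ackr3 points rise with the CH score (r = 0.78).

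**Figure D4:**
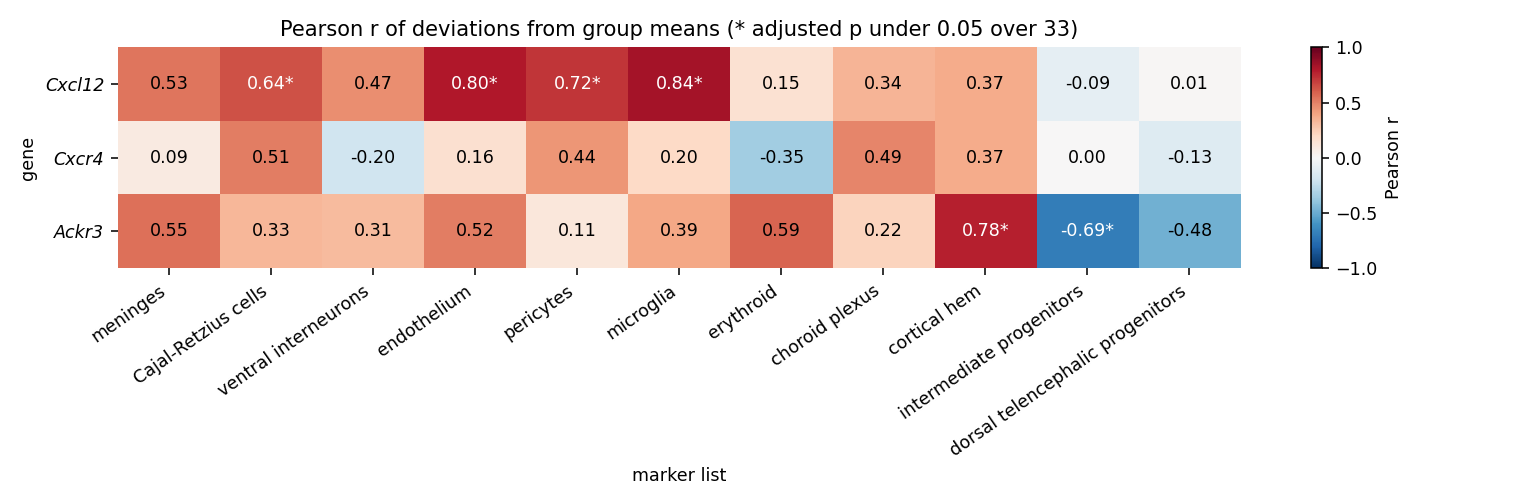
Pearson r of each gene (rows) with 11 marker lists (columns) after removal of group means, 24 libraries, with an asterisk where the permutation p adjusted over 33 relations was under 0.05. Asterisks stand at 4 lists for Cxcl12 and 2 for Ackr3, and at none for Cxcr4.

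The members were also compared with each other from library to library. After removal of group means r was 0.17 for Cxcl12 with Cxcr4, 0.50 for Cxcl12 with Ackr3 and 0.08 for Cxcr4 with Ackr3, given as a description over 24 libraries that share their depth and dissection.

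Of the 10 Cajal-Retzius markers 1 passed in a genotype comparison, that of the E13.5 Sox1Cre line, where 0.924% of all genes were called. Ebf3, an EBF-family transcription factor gene, was at 731, 785, 709 and 727 in the E13.5 Sox1Cre mutants and at 890.12, 879, 952 and 977 in their controls. The groups did not overlap, and 2.6% of all genes tested lay lower in this way. The difference was -0.32 (SE 0.0743, adjusted p = 0.0352, limma; exact permutation p = 0.0286), with edgeR and DESeq2 on the same side of the threshold, but it passed in only 13 of 22 alternative fits. In the NestinCre comparison Ebf3 differed by -0.02 (adjusted p = 1, limma) and at E12.5 by -0.15 (adjusted p = 0.383). The difference between the lines was 0.30 (adjusted p = 0.346, limma) and did not pass. The NestinCre controls, at 763 ± 59.0, differed from the Sox1Cre controls by -0.28 (adjusted p = 0.133, limma), a difference that DESeq2 called. The other 9 Cajal-Retzius markers, among them Reln, Trp73 and Calb2, did not pass in the E13.5 Sox1Cre comparison. The median log2 change of all 10 was -0.10 there, 0.08 in the NestinCre comparison and -0.03 at E12.5. Of the 9 intermediate progenitor markers Neurod4, a proneural transcription factor gene, also passed in a genotype comparison, at E12.5, beside 0.723% of all genes. It averaged 145 ± 48.3 normalized counts in the E12.5 Sox1Cre mutants and 46.5 ± 23.5 in their controls (1.71, adjusted p = 0.0417, limma), and it passed in 11 of 22 alternative fits, with DESeq2 but not with edgeR or quantile scaling. In the E13.5 Sox1Cre line Neurod4 was at 212 to 392 in the mutants and at 44.2 to 195 in the controls, without overlap, beside 2.46% of all genes tested that lay higher in this way. The difference there was 1.44 (adjusted p = 0.0887, limma), and DESeq2 called it.

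Downstream of the receptors, a list of 36 genes held partner ligands, a ligand-cleaving protease, G protein subunits, receptor kinases, arrestins and migration effectors, and 34 were tested. None passed in the E13.5 Sox1Cre comparison by limma or edgeR (4 had an unadjusted limma p under 0.05, and DESeq2 called Nedd9). None passed in the NestinCre comparison by limma or edgeR (3 had an unadjusted limma p under 0.05, and DESeq2 called Hmgb1). At E12.5 Nedd9 was the single gene that passed, beside 0.723% of all genes. The median log2 change of the list was -0.0096, 0.0072 and -0.028 in the 3 comparisons. The most abundant members were Cfl1, the actin-severing protein cofilin, at 19412, and Gnb1, a G protein beta subunit, at 17369, neither of which passed in any of the 3.

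Nedd9 encodes a scaffold protein that links integrin and chemokine receptor signals to cell movement. At E12.5 it was at 2468, 2006, 2559 and 1928 normalized counts in the mutants and at 3134, 3072, 2909 and 3321 in the controls. Every mutant lay below every control, a separation in this direction that 5.93% of all genes tested showed. The difference was -0.48 (SE 0.0677, adjusted p = 0.000808, limma; exact permutation p = 0.0286). It passed in 21 of 22 alternative fits, with an adjusted p of 0.0658 (limma) in the fit of these 8 libraries alone.

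The same gene was lower in both E13.5 comparisons without passing over all genes. The E13.5 Sox1Cre mutants were at 2610.3, 2668, 2821 and 2598 and their controls at 3216, 3202, 3138 and 3299, a difference of -0.27 (unadjusted p = 0.000776, adjusted p = 0.0679, limma). The NestinCre mutants were at 2570.4, 2427, 2574 and 2695 and their controls at 3151, 3072, 3049 and 3057, a difference of -0.26 (unadjusted p = 0.000792, adjusted p = 0.3, limma). Mutants and controls did not overlap in either, as in 2.8% of all genes in the NestinCre comparison. The 3 comparisons share no library. Nedd9 was one of 27 genes of 16454, Sox9 among them, that were lower in every mutant than in every control in all 3. The change in one line minus that in the other was 0.00059 (95% interval -0.20 to 0.20), and the change at E13.5 minus that at E12.5 was 0.22 (unadjusted p = 0.0343, adjusted p = 0.644, limma).

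**Figure D5:**
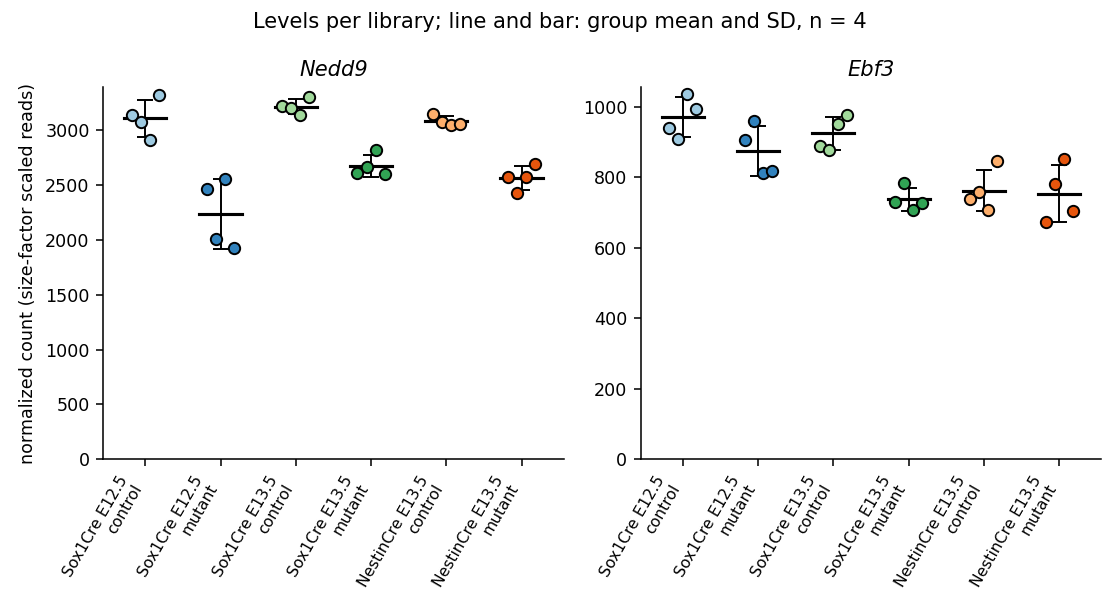
Normalized counts (size-factor scaled reads, vertical axes from 0) of Nedd9 and Ebf3 in each library by group, with the group mean (line) and SD (bar), n = 4. Nedd9 mutants lie below their controls in all 3 comparisons, Ebf3 mutants in the E13.5 Sox1Cre comparison.

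With age 1 gene of the 34 passed in the Sox1Cre controls and 5 in the mutants, beside 11.5% and 25.9% of all genes, so the list held no larger share of calls than the table as a whole. Gnai2, the inhibitory G protein alpha subunit to which CXCR4 couples, fell by 0.27 in the Sox1Cre controls (adjusted p = 0.0268, limma) and by 0.25 in the mutants (adjusted p = 0.0202). In the mutants the other 4 rose (adjusted p = 0.00613 to 0.0412, limma), Gng2, a G protein gamma subunit, by 0.40, Nedd9 by 0.27, Gnao1, a neuronal G protein alpha subunit, by 0.21 and Limk1, the kinase that inactivates cofilin, by 0.18. Of these rises, those of Gng2 and Nedd9 each passed in 20 of 22 alternative fits, that of Gnao1 in 13 and that of Limk1 in 11. No other gene of the 34 passed with age in either genotype.

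Of 23 other chemokine ligands and receptors 12 were tested, and none passed in a genotype comparison by limma, edgeR or DESeq2. This stood beside 0.924% (E13.5 Sox1Cre), 0.0669% (NestinCre) and 0.723% (E12.5) of all genes called by limma. Of the 12, 1 had an unadjusted limma p under 0.05, at E12.5. The most abundant, Cx3cl1, the neuronal ligand of the microglial receptor CX3CR1, averaged 638.6 normalized counts. It fell from 848 ± 43.2 at E12.5 to 541 ± 85.6 at E13.5 in the controls (-0.66, adjusted p = 0.00261, limma) and by 0.76 in the mutants. Ackr1, an atypical receptor of red cells and venules, rose by 1.10 in controls (adjusted p = 0.0129, limma) and by 0.98 in mutants. Ackr2, an atypical receptor that clears inflammatory chemokines, rose by 1.34 in the controls. Ccrl2, which presents chemerin, fell by 1.38 in the mutants from a low level, and passed in 11 of 21 alternative fits. Of the 12 genes tested, 2 passed with age as higher and 1 as lower in the controls, beside 11.5% of all genes. In the mutants 1 passed as higher and 2 as lower, beside 25.9%.

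Reelin is the positional signal released by Cajal-Retzius cells once they are in place. Of the 10 genes of its pathway none passed in a genotype comparison by limma, edgeR or DESeq2 (2, 1 and 2 had an unadjusted limma p under 0.05 in the E13.5 Sox1Cre, NestinCre and E12.5 comparisons). In the same order limma called 0.924%, 0.0669% and 0.723% of all genes. Reln itself differed by 0.06 in the E13.5 Sox1Cre comparison, by 0.42 in the NestinCre comparison (adjusted p = 0.911, limma) and by 0.05 at E12.5. Dab1, the intracellular adaptor of the Reelin receptors, differed by -0.37 in the E13.5 Sox1Cre comparison (unadjusted p = 0.0189, adjusted p = 0.303, limma) and by -0.49 at E12.5 (unadjusted p = 0.00299, adjusted p = 0.13). With age Reln rose by 1.04 in controls and by 1.06 in mutants, from 3915 ± 313.7 to 8325 ± 2384 in the controls. The Cajal-Retzius markers as a list did not rise with it. Of these 10 markers, Reln included, 3 passed with age as higher and 1 (Ebf2) as lower in the controls, beside 11.5% of all genes. In the mutants 3 passed as higher and 4 (Trp73, Lhx5, Ebf3 and Ebf2) as lower, beside 25.9%. The median log2 difference of the 10 was -0.04 in controls and -0.12 in mutants. Fyn, the kinase that phosphorylates DAB1, rose by 0.34 and Crkl, an adaptor that binds phosphorylated DAB1, fell by 0.18 in the mutants. Of the 10 pathway genes 1 passed with age in the controls, beside 11.5% of all genes. In the mutants 2 passed as higher and 1 as lower, beside 25.9%.

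The genes whose pattern was most like each member over all 24 libraries, among 11829 genes with a mean of at least 100, were different for the 3 genes. For Cxcl12 they were Phlda1 (r = 0.87), Lama4 (0.86), a laminin chain of vessel basement membranes, Apod (0.83), Nid2 (0.82), a basement membrane nidogen, and Lrrc17 (0.81). For Cxcr4 they were Wnt5a (0.87), a Wnt ligand and one of the CH markers, Ccdc3 (0.80), Tacr1 (0.79), Igsf3 (0.78) and Mlc1 (0.78). For Ackr3 they were Cdh11 (0.92), a cadherin, Asb4 (0.89), Yap1 (0.88), the Hippo pathway coactivator, Tgif1 (0.88) and Ngly1 (0.87).

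After removal of group means the most alike genes to Cxcl12 were Arhgef5 (0.89), Lcp1 (0.88), an actin-bundling protein of blood cells, Jak1 (0.87), Mmp28 (0.86) and Slco2b1 (0.86). For Cxcr4 they were Slc17a5 (0.80), Rnf6 (0.80), Lrrc3 (0.80), Wnt5a (0.78) and Ccdc3 (0.78). For Ackr3 they were Cdh11 (0.89), Chrna3 (0.85), E2f7 (0.85), Asb4 (0.84) and Sulf2 (0.84). Wnt5a and Ccdc3 were on both lists of Cxcr4, and Cdh11 and Asb4 on both lists of Ackr3. These are descriptions over 24 libraries of one dissection.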

How the data were processed

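The authors trimmed reads with Trimmomatic 0.36, aligned them to Ensembl GRCm38 with STAR 2.5.2a, estimated gene counts with RSEM 1.2.31 and used DESeq2 for scaling. Each deposited signal is a normalized count, the RSEM count rounded and divided by 1 size factor per library. Whole reads were recovered from 100% of values (tolerance 0.01), with less room for this check in A3. The strand setting of the counting is not given in the sources used here. Gene names were matched for 51719 of 51912 identifiers.

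Genes that reached 10 in 4 or more of the 24 libraries (16454) were fitted with limma 3.58.1 (R 4.3.3; trend, log2(value + 1), 1 mean for each of 6 groups, 18 residual degrees of freedom), with Benjamini-Hochberg adjustment over all genes tested and a threshold of 0.05. A fold change on this scale understates the change of low genes. Single values were also compared by two-sided exact permutation tests over libraries. edgeR 4.0.16 and DESeq2 1.42.0 on the recovered reads, other pseudocounts, filters, scalings and covariates and the removal of each library were tried as alternatives. Replicates differed by more than counting error in all 36 pairs. The fits were tested on simulated data. The 95% intervals come from limma and cover the spread among libraries. The percent counting error covers read sampling only, as no molecular identifiers are described.

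Of each of 14 lists (183 genes), the genes past the threshold in a comparison and otherwise the most abundant were named, with the 5 genes most alike to each member. The members and lists were chosen with earlier results of these data known, so no list is independent evidence. Promoters came from RefSeq (GRCm38.p6). Tables, permutations and plots used scipy 1.17.1, pandas 2.3.3, numpy 2.4.6 and matplotlib 3.10.9 under Python 3.11.15.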

Additional observations from a re-analysis of the deposited data

Results flagged for a closer look

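Of 84 values by group (3 genes and 11 marker scores in 6 groups of 4 libraries), 8 held a library whose gap to its nearest neighbour exceeded Dixon's 95% critical share of the group's range, and chance alone marks about 1 group in 20. For Ackr3 these were A5 among the E13.5 Sox1Cre controls, at 699 with the other 3 between 619 and 629, and A18 among the NestinCre mutants, at 659. A18 also stood apart in the ventral interneuron score (5.62). A1 stood apart among the E13.5 Sox1Cre mutants in the choroid plexus score (8.01). In the CH score A6 was low among the E13.5 Sox1Cre controls (10.49) and A12 high among the E12.5 Sox1Cre mutants (12.14). A8 was low in the endothelium score among the E13.5 Sox1Cre controls (9.27), and A16 low in the microglia score among the E12.5 Sox1Cre controls (6.34). The ratios of gap to range were 0.870 and 0.830 for Ackr3, 0.850 for A18 in interneurons, 0.908 for A1, 0.946 for A6, 0.901 for A12, 0.854 for A8 and 0.904 for A16.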

How the results depend on the processing

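Of 576 alternative fits of the members, 573 kept the side of the threshold and 523 the sign. The age difference of Cxcl12 in the Sox1Cre controls passed with the endothelium score as a covariate, which was chosen after seeing the data (0.39, limma adjusted p = 0.0247), and in the libraries of that comparison alone (0.39, 0.0310). That of Ackr3 in the mutants ran from -0.35 (without A2, 0.0205) to -0.15 (without A1) as single libraries were left out.

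Of 132 alternative relations, 109 kept their side. With all values uncentred, r was 0.56 for Cxcl12 with meninges (adjusted permutation p = 0.0155), 0.30 for Cxcl12 with Cajal-Retzius cells (0.332) and 0.58 for Cxcr4 with Cajal-Retzius cells (0.0125). With summed markers r was 0.74 for Cxcl12 with meninges (0.0138), -0.083 for Cxcl12 with Cajal-Retzius cells (0.854), 0.65 for Cxcr4 with Cajal-Retzius cells (0.0199) and, for Ackr3, 0.68 with meninges (0.0199), 0.89 with ventral interneurons (0.00033), 0.62 with pericytes (0.0387) and 0.57 with erythroid cells (0.0387; uncentred 0.71, 0.00106). In the 16 E13.5 libraries, and without A1, A10 and A18 (chosen after seeing the data), Cxcl12 with Cajal-Retzius cells had r of 0.57 (0.247) and 0.26 (0.604). The cause of these shifts was not tested.

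Of 101 passes among listed genes and Sox9, 93 held by quantile scaling, edgeR and DESeq2. With the CH score as a covariate 4 age differences in the mutants turned sign, to 0.035 for Foxc1, 0.042 for Lum, 0.073 for Lmx1a and 0.31 for Msx1. Lmx1a and Msx1 are themselves markers in that score, so the fit removes part of their own change by construction.

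Counts of genes called moved more. They ran from 44 (the comparison's libraries alone) to 962 (array weights) against 152 in the E13.5 Sox1Cre comparison, 2 (Xist covariate) to 37 (DESeq2) against 11 in the NestinCre comparison, 76 to 577 against 119 at E12.5, 0 (Xist covariate) to 3244 against 1892 for age in controls, 1 (CH covariate) to 5550 against 4263 for age in mutants, 22 to 152 against 40 between control lines, 5 to 369 against 7 between lines and 0 to 20 against 0 between ages. Leaving out 1 library gave 90 (A3) to 510 (A1), 2 (A18) to 7, 50 (A13) to 139, 794 (A6) to 2629 (A5), 2948 to 4725, 11 (A23) to 31 and 5 to 144 (A1) in the first 7 of these. No paired analysis was possible because the groups share no replicate numbers. Depth limited no member, as each had at least 468 reads in every library.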
